A study of Mus musculus with 2 samples.

Results

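The enzymes described here are 9 genes grouped under hepatic amino acid breakdown, namely Hal, Uroc1, Sds, Tat, Tdo2, Hpd, Aass, Gldc and Etnppl. Etnppl acts on phosphoethanolamine, which is not an amino acid, and is counted among them. The 9 genes were chosen by name, as the rows of the count tables with these symbols, and make up 9 of the 19465 genes in the tables. Each was listed once in each table and passed the minimum of 200 UMIs (unique molecular identifiers, counts of captured probe molecules) summed over both sections. Their RNA was counted on barcoded spots of 10x Visium slides, in 1 formalin-fixed, paraffin-embedded liver section of an AEG-1-WT mouse (WT below) and 1 of an AEG-1-C75S mouse (C75S below). Both were untreated, naïve female littermates of 8 weeks, sampled at the same lobe and cut at 5 µm. AEG-1 (gene symbol Mtdh) is a scaffold protein that carries a fatty acid (palmitoyl) group on its cysteine 75, and AEG-1-C75S mice carry a CRISPR/Cas9 knock-in in which this cysteine is a serine in the whole animal. With 1 section per genotype, the genotype cannot be told apart from the animal, the section or its handling, no test was possible, and the spots of a section are not replicates. All intervals below are 95% intervals. They cover counting error only, except those of shares of spots, which treat spots as independent draws.

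The liver takes up amino acids that arrive from the gut and breaks down those not needed for protein, so that their nitrogen can enter urea and their carbon glucose or ketone bodies. The lobule is zoned: blood enters at portal tracts (periportal) and leaves at the central vein (pericentral), and many enzymes of amino acid breakdown and gluconeogenesis are known to be more abundant on the portal side. Tat and Tdo2 are textbook examples of liver enzymes induced by glucocorticoids.

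After the filter on spots, 2309 of 2316 spots of the WT section and 2163 of 2167 of the C75S section were used, with 42246988 and 41674347 UMIs. A spot had a median of 16830 UMIs in WT (5% to 95% of spots, 11460 to 29951) and of 18808 in C75S (6599 to 33880), so depth varied more between spots of the C75S section. The sections shared 1896 barcodes, which mark positions on the slide and not cells. Mtdh had 3143 UMIs in WT and 3056 in C75S, which does not check the genotype, since the knock-in changes 1 residue. The tissue label matched the markers: the 5 hepatocyte markers summed to 175830 UMIs per 1000000 UMIs (CPM) in WT and 180653 in C75S, against 0.639 and 0.984 CPM for 5 markers of kidney or brain. In spots that hold several cells, fewer cells of a type and less RNA per cell cannot be told apart. The assay counts probe pairs of unequal efficiency, so levels are compared between sections or positions for 1 gene and never between genes.

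The upstream sequences of 4 of the enzymes are shown because they form contrasting pairs below: Tat and Tdo2 lay on opposite sides of 0 in the comparison of sections, and Hal and Hpd leaned to opposite sides of the lobule. They are the 250 bases before the annotated start in RefSeq (GRCm38.p6, the build of the mm10 reference), 5′ to 3′ on the strand of the gene, with motif matches in capitals. Upstream windows were at hand for 8 of the 9 enzymes, all but Sds. The windows are chr8:109990186-109990435 (plus strand) for Tat, chr3:81975729-81975978 (minus strand) for Tdo2, chr10:93488518-93488767 (plus strand) for Hal and chr5:123182724-123182973 (minus strand) for Hpd. The Tat window lies within the bounds of the RefSeq gene, chr8:109986078-109999804.
Tat: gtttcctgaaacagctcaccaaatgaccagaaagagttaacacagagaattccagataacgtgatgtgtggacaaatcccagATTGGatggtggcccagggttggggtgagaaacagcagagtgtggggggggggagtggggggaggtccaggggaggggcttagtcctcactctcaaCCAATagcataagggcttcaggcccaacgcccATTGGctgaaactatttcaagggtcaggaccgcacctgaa
Tdo2: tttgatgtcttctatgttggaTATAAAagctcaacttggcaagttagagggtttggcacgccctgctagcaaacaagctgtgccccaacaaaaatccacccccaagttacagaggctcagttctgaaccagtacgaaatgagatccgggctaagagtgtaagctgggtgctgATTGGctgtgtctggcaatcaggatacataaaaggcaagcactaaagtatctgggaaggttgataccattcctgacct
Hal: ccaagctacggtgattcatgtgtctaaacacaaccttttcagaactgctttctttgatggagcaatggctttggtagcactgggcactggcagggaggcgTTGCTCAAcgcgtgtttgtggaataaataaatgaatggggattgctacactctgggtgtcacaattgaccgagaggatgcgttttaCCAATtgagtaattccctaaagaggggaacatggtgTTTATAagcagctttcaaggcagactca
Hpd: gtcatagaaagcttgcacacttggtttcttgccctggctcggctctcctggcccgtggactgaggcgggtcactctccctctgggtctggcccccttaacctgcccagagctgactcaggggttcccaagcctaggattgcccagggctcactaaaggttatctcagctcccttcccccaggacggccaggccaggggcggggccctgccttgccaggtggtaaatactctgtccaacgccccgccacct

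Matches to 8 motifs were sought on both strands, and the motifs and the printed windows were picked with the values of the enzymes already seen. A CCAAT box (CCAAT) was in 6 of the 8 enzymes with a window, against 33.8% of 32851 RefSeq windows of the same length, and Tat held it 3 times, nearest at bases -40 to -36 from the start (ATTGG on the printed strand). Hal held a C/EBP motif (TTGCNNAA) at -150 to -143, and this motif was in 2 of the 8 windows and in 9.56% of all. A TATA box (TATAAA) was in 2 of the 8, Hal at -28 to -23 on the opposite strand and Tdo2 at -229 to -224, against 12.4% of all windows. The CRE half-site (TGACG) was in 1, that of Aass, against 17.8%. The glucocorticoid response element half-site (AGAACA, 16.1% of all windows), the E-box (CACGTG, 6.02%), the D-box (TTATGTAA, 0.819%) and the HNF1 half-site (GTTAAT, 6.43%) had no match in the 8 windows, counting the first of the pair of entries of Etnppl. The second entry of Etnppl, left out of these counts, held the HNF1 half-site at -6 to -1. A match is a description of letters, and its absence says nothing of a factor that may bind elsewhere. The printed matches do not overlap each other.

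Over the whole sections, Tat and Sds had lower levels in C75S than in WT past the fold used here, a log2 ratio of 0.5 in either direction. No enzyme was higher past it. Thus 2 of the 9 enzymes were lower past the fold, where 4.61% of the 10389 genes with the minimum of UMIs were, and 0 were higher, where 2.44% of all genes were. With a minimum of 50 UMIs the shares of all genes were 7.08% and 3.33%. With TMM scaling the shares of all genes became 3.59% lower and 3.18% higher, and the count of enzymes stayed at 2 and 0. In all, 6 of the 9 had a log2 ratio below 0, as had 59.6% of all genes, and 3 one above 0, as had 40.4%. The median over the 9 was -0.32 against -0.05 over all genes.

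**Figure D1:**
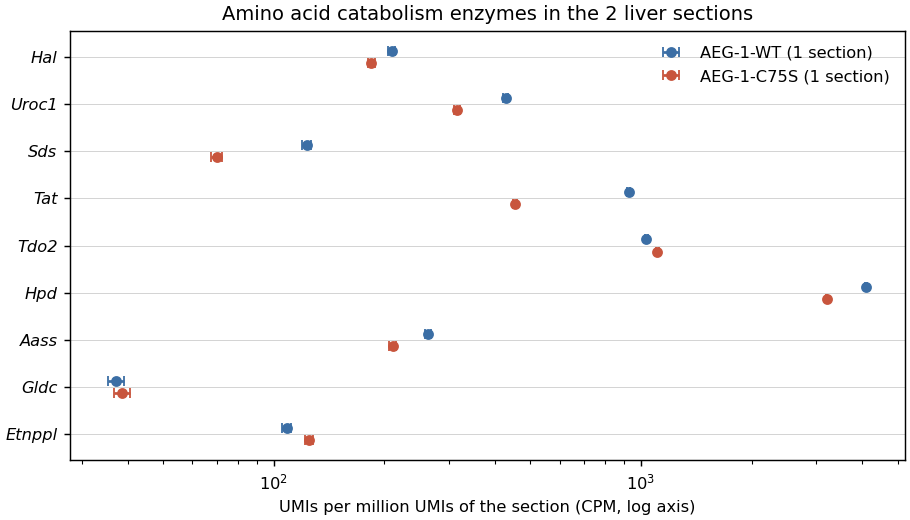
Level of each enzyme in UMIs per 1000000 UMIs of its section (CPM, log axis), with 1 point per section and bars for exact Poisson 95% intervals. The points of Tat and Sds lie farthest apart, with C75S to the left, and those of Gldc have overlapping bars; rows are not to be compared with each other, since probes differ in efficiency.

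Tat (ENSMUSG00000001670), tyrosine aminotransferase, catalyses the transamination that opens tyrosine breakdown. It had 39084 UMIs in WT and 18915 in C75S, or 925 CPM (interval 916 to 934) and 454 CPM (447 to 460). The level in WT was 2.04 times that in C75S, a log2 ratio of -1.03 (-1.052 to -1.002). Of all genes, 0.683% had a lower ratio. Hpd (ENSMUSG00000029445; chr5:123171807-123182723), which converts the product of Tat to homogentisate, had 4094 CPM (4075 to 4114) in WT and 3200 CPM (3183 to 3217) in C75S. Its log2 ratio was -0.36 (-0.37 to -0.35), in the same direction as that of Tat and short of the fold. The intervals of the sections did not overlap for either tyrosine enzyme.

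Sds (ENSMUSG00000029597; chr5:120476547-120483932), serine dehydratase, turns serine into pyruvate and ammonia. It had 5191 UMIs in WT and 2913 in C75S, or 123 CPM (120 to 126) and 69.9 CPM (67.4 to 72.5). The log2 ratio was -0.81 (-0.88 to -0.75), and 1.27% of all genes had a lower ratio. Gldc (ENSMUSG00000024827; chr19:30098441-30175441), the glycine-binding subunit of the mitochondrial glycine cleavage system, had the fewest UMIs, 1573 in WT and 1612 in C75S. Its 37.2 CPM (35.4 to 39.1) and 38.7 CPM (36.8 to 40.6) gave a log2 ratio of 0.06 (-0.05 to 0.16), within counting error of 0.

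Hal (ENSMUSG00000020017; chr10:93488768-93516761), histidine ammonia-lyase, and Uroc1 (ENSMUSG00000034456; chr6:90333239-90364551), urocanase, carry out consecutive steps of histidine breakdown. Hal had 209 CPM (205 to 214) in WT and 185 CPM (180 to 189) in C75S, a log2 ratio of -0.18 (-0.23 to -0.14). Uroc1 had 428 CPM (422 to 435) and 316 CPM (310 to 321), a log2 ratio of -0.44 (-0.47 to -0.41). Of all genes, 25.2% had a lower ratio than Hal and 6.04% a lower ratio than Uroc1. Aass (ENSMUSG00000029695; chr6:23072173-23132986), the bifunctional enzyme that opens lysine breakdown, had 263 CPM (259 to 268) and 211 CPM (206 to 215), a log2 ratio of -0.32 (-0.36 to -0.28).

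Tdo2 and Etnppl were the enzymes above 0 beyond counting error. Tdo2 (ENSMUSG00000028011; chr3:81958412-81975728), tryptophan dioxygenase, opens the kynurenine pathway. It had 1032 CPM (1023 to 1042) in WT and 1108 CPM (1098 to 1119) in C75S, a log2 ratio of 0.10 (0.08 to 0.12) that 22.5% of all genes exceeded. Etnppl (ENSMUSG00000019232; chr3:130617448-130635750), which breaks down phosphoethanolamine and belongs to the aminotransferase family, had 108 CPM (105 to 112) and 125 CPM (121 to 128), a log2 ratio of 0.20 (0.15 to 0.26) that 11.9% of all genes exceeded. Tat and Tdo2 thus lay on opposite sides of 0. The sign of each of the 9 ratios was the same under the 7 alternatives run for the whole sections, with Tat between -1.04 and -0.97, Sds between -0.86 and -0.76, and Gldc between 0.01 and 0.11. Those that changed the scaling raised every ratio by the same 0.04 to 0.06, too little to turn any of these signs. Lifting the spot filter returned only 7 and 4 spots.

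To place the enzymes along the lobule, the spots of each section were ranked by (Cyp2f2 + 1)/(Cyp2e1 + 1), the counts of a periportal and a pericentral cytochrome, and cut into 5 equal groups, from the most periportal to the most pericentral bin. In WT, 4 of the 9 enzymes were at least 2-fold higher in the most periportal than in the most pericentral bin (a log2 ratio of at least 1), where 1.68% of all genes were. In C75S, 5 were, where 1.23% of all genes were. None was 2-fold higher on the pericentral side, where 1.74% of all genes were in WT and 1.55% in C75S. In the lists used below, of amino acid breakdown and of phosphoethanolamine, 79 other genes had the minimum of UMIs. Of these, 4 passed on the portal side in each section, and 3 in WT and 4 in C75S passed on the pericentral side. Phospho1, of the phosphoethanolamine list, was among those on the pericentral side in both sections. The count on the portal side thus describes the 9 enzymes chosen and not the lists at large. Sds, Etnppl, Hal and Gldc passed in both sections, as did 0.886% of all genes, and Uroc1 stood at the threshold in both. Hal is itself one of the periportal markers in use for this tissue, so its place was known beforehand.

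**Figure D2:**
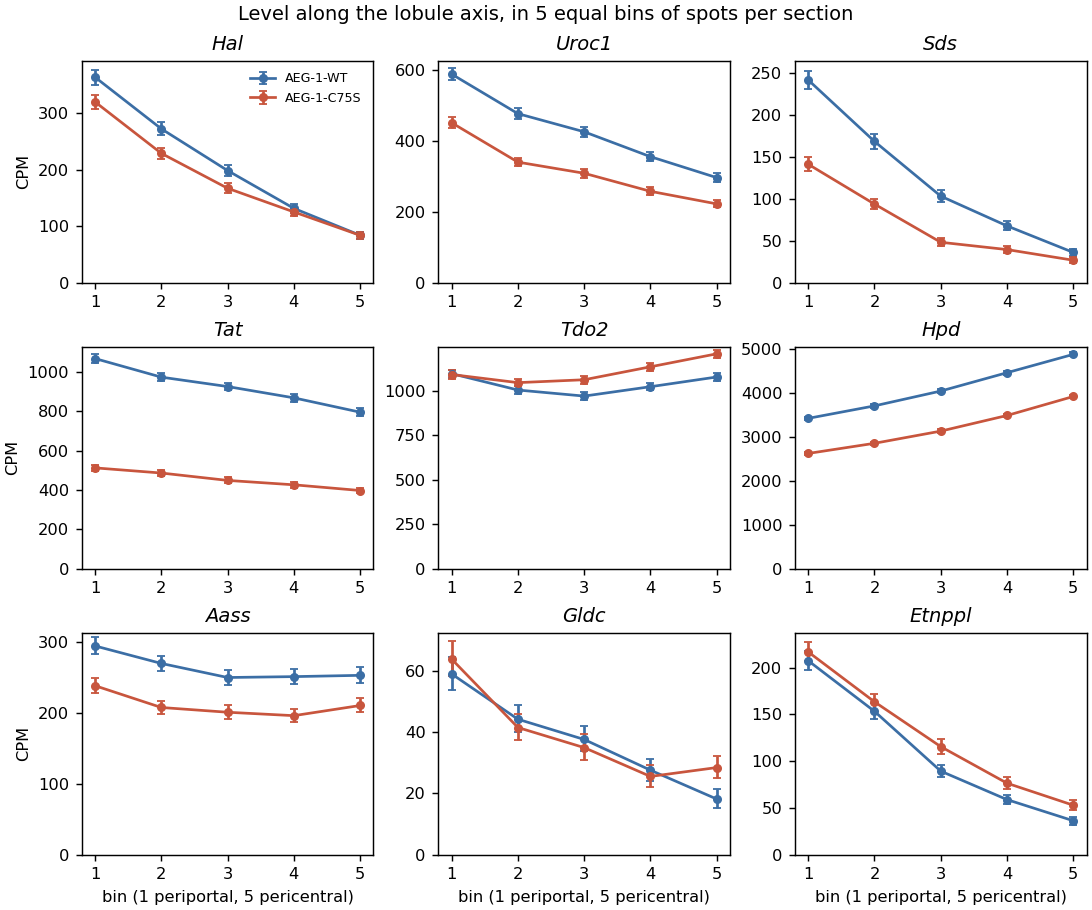
Level in CPM (each vertical axis from 0) of each enzyme in the 5 bins of the lobule axis of each section, with exact Poisson 95% intervals as bars. Hal, Uroc1, Sds, Gldc and Etnppl slope down from the portal side, Hpd slopes up, and Tat in C75S lies below WT in all 5 bins.

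Sds was the steepest. In WT it had 242, 169, 103, 67.8 and 36.2 CPM from the most periportal to the most pericentral bin, and in C75S it had 141, 93.9, 48.3, 39.6 and 26.9 CPM. Each step was downward, though the intervals of the third and the fourth bin of C75S overlapped, with a log2 ratio of the end bins of 2.74 (2.56 to 2.93) in WT and 2.40 (2.19 to 2.61) in C75S. Etnppl followed, with 207, 153, 89.3, 58.9 and 36.3 CPM in WT and 217, 163, 116, 76.4 and 52.9 CPM in C75S. Its end bins differed by 2.51 (2.33 to 2.70) and 2.03 (1.88 to 2.19) on the log2 scale, and the intervals of adjacent bins did not overlap in either section.

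The histidine enzymes had unequal slopes. Hal had 363, 272, 198, 132 and 83.9 CPM in WT and 320, 229, 167, 125 and 83.8 CPM in C75S, with log2 ratios of the end bins of 2.11 (1.99 to 2.24) and 1.93 (1.81 to 2.05). Uroc1, the next step of the pathway, had 589, 477, 426, 356 and 297 CPM in WT and 452, 340, 309, 258 and 223 CPM in C75S, with log2 ratios of 0.99 (0.92 to 1.06) and 1.02 (0.94 to 1.10). The other histidine enzymes measured, Amdhd1 and Ftcd, had ratios near that of Uroc1, 0.97 and 0.91 in WT and 1.08 and 0.92 in C75S. Hal was therefore the steepest of the 4 genes of the histidine list in both sections. Gldc had 58.9, 44.2, 37.6, 27.6 and 18.1 CPM in WT and 63.8, 41.5, 34.9, 25.5 and 28.4 CPM in C75S, a ratio of 1.70 (1.43 to 1.98) and of 1.17 (0.94 to 1.39). In C75S its last pair of bins had overlapping intervals, so no order of that pair can be read.

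The enzymes of tyrosine, lysine and tryptophan breakdown were flatter. Tat had 1067, 973, 925, 868 and 795 CPM in WT and 512, 486, 448, 426 and 397 CPM in C75S, a periportal lean of 0.43 (0.38 to 0.47) and 0.37 (0.30 to 0.43) on the log2 scale. Hpd leaned the other way, with 3417, 3701, 4037, 4455 and 4871 CPM in WT and 2620, 2850, 3127, 3482 and 3914 CPM in C75S. Its log2 ratios were -0.51 (-0.53 to -0.49) and -0.58 (-0.60 to -0.55), and every step was upward toward the central vein. Tat and Hpd, both of tyrosine breakdown, thus had opposite slopes in both sections. Aass was between 250 and 295 CPM in the bins of WT and between 196 and 239 CPM in those of C75S, with log2 ratios of 0.22 (0.13 to 0.31) and 0.18 (0.09 to 0.27).

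Tdo2 had no single slope. It had 1097, 1004, 970, 1023 and 1078 CPM in WT, lowest in the middle bin, and 1092, 1046, 1062, 1135 and 1208 CPM in C75S, highest in the most pericentral bin. Its log2 ratio of the end bins was 0.02 (-0.02 to 0.07) in WT, within counting error of 0, and -0.15 (-0.19 to -0.10) in C75S. The median of all genes was itself below 0, at -0.12 in WT and -0.09 in C75S.

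**Figure D3:**
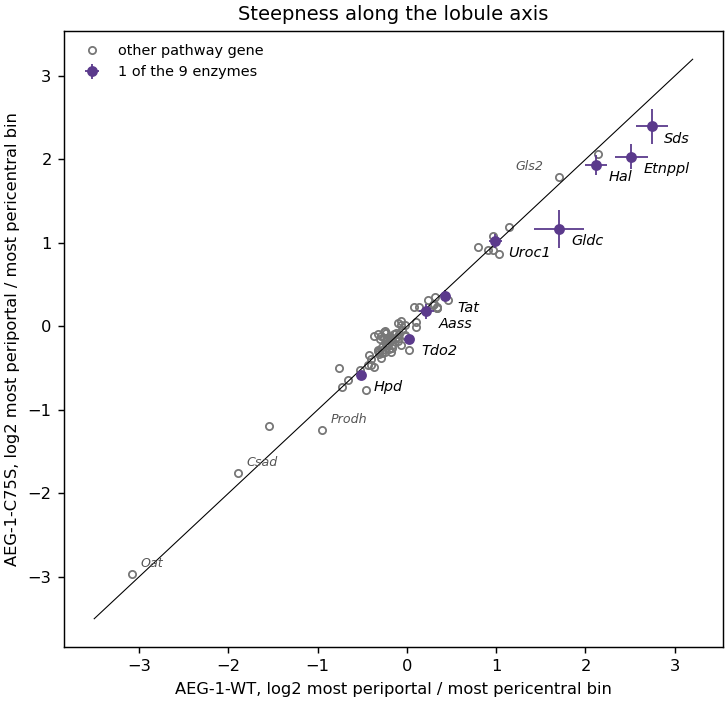
Log2 ratio of the most periportal over the most pericentral bin in WT (horizontal) and C75S (vertical), with the line of equal values. The 9 enzymes have exact binomial 95% intervals, and the other points are the other genes of the amino acid and phosphoethanolamine lists. Sds, Etnppl, Hal and Gldc lie at the upper right, below the line, and Hpd is the 1 enzyme clearly below 0 in both sections.

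The 4 steep periportal enzymes had smaller end-to-end ratios in C75S when bins were cut within each section. The difference in log2 ratio, C75S minus WT, was -0.53 (-0.88 to -0.18) for Gldc, -0.48 (-0.71 to -0.24) for Etnppl, -0.35 (-0.62 to -0.07) for Sds and -0.18 (-0.35 to -0.01) for Hal. The genes that define the axis were flatter in C75S as well: the ratio was 2.72 and 2.29 for Cyp2f2 and -2.61 and -2.39 for Cyp2e1. With cut points set over both sections together, the order turned for Sds (2.56 in WT, 2.70 in C75S) and Hal (2.01 and 2.12), while Etnppl (2.36 and 2.23) and Gldc (1.64 and 1.26) kept it.

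Tat was lower in C75S to nearly the same degree all along the lobule. Its log2 ratio of C75S over WT was -1.059, -1.001, -1.044, -1.026 and -1.001 from the most periportal to the most pericentral bin, a range of 0.06, where the median of all genes was between -0.07 and -0.01. Under the 4 alternatives for the axis and scaling each bin stayed between -1.07 and -0.94. Uroc1 (-0.49 to -0.38), Hpd (-0.38 to -0.32) and Aass (-0.38 to -0.27) were likewise below 0 in all 5 bins with intervals that excluded 0. Over the 45 pairs of enzyme and bin, 9 were lower past the fold, 5 of Tat and 4 of Sds, and 2 were higher. Of all genes, the share lower past the fold in a bin was 3.47%, 5.26%, 4.52%, 4.37% and 3.56% from the portal side, and the share higher was 2.64%, 2.29%, 2.38%, 2.36% and 2.78%.

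**Figure D4:**
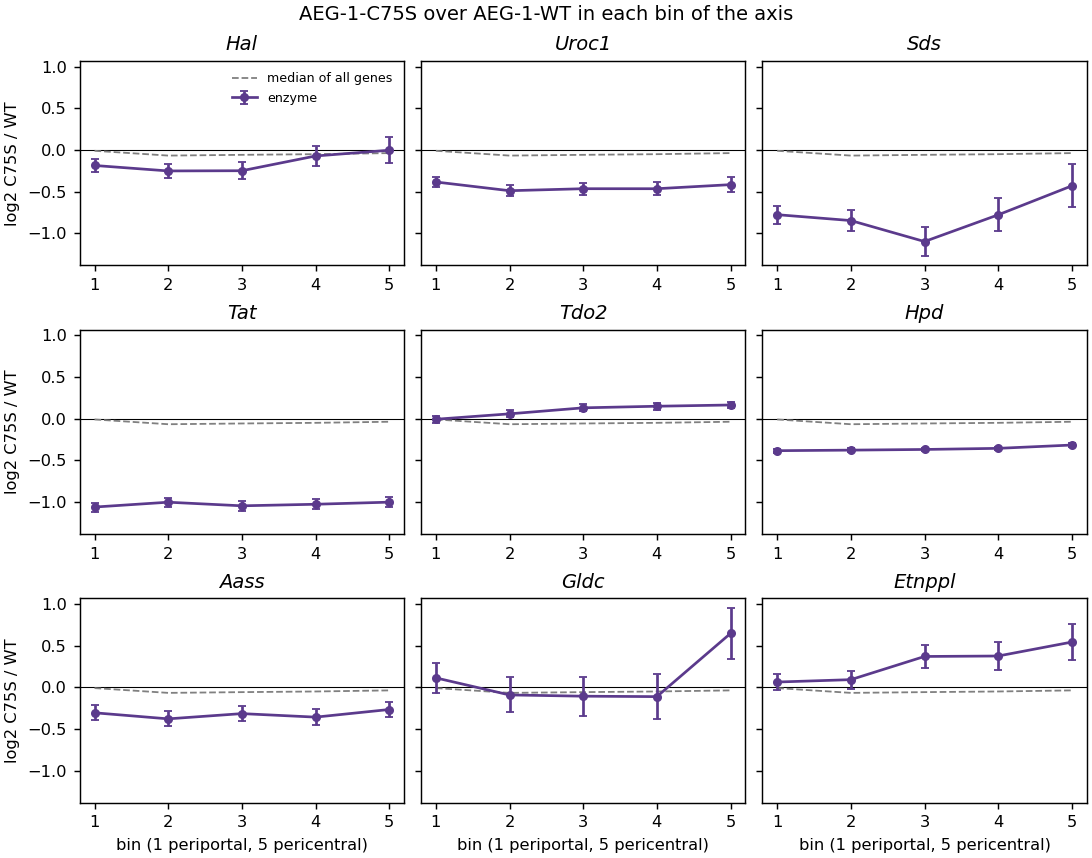
Log2 ratio of C75S over WT in each bin for the 9 enzymes, with exact binomial 95% intervals as bars, the median of all genes as a dashed line and 0 as a solid line. Tat is level near -1 across the lobule, Sds is below 0 in all 5 bins, and with bins cut within each section Tdo2 and Etnppl have larger values toward the central vein.

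The ratio of Sds was less even, at -0.77, -0.85, -1.10, -0.78 and -0.43 from the portal side. Its middle value ranged from -1.28 to -0.82 under the alternatives, and its most pericentral value, which rests on 287 and 225 UMIs, from -0.92 to -0.39. Hal was at -0.18, -0.25 and -0.25 in the bins from the portal side to the middle and within counting error of 0 in the other two, but with common cut points these were at -0.28 and -0.30. Etnppl was at 0.06, 0.09, 0.37, 0.38 and 0.54, with intervals above 0 in 3 bins, and with common cut points the middle bin was at 0.07 and the next at 0.24. Gldc was within counting error of 0 except in the most pericentral bin, where 144 UMIs in WT and 238 in C75S gave 0.65 (0.34 to 0.96). The values of Etnppl and Gldc past the fold in the most pericentral bin depended on how the axis was cut: with other axis genes (Gls2 and Hsd17b13 over Cyp1a2 and Oat) they were 0.48 and 0.32, with common cut points 0.191 and 0.498, and with an axis from thinned counts 0.44 and 0.47, all short of the fold. Tdo2 was at -0.01, 0.06, 0.13, 0.15 and 0.16.

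The lists of amino acid breakdown and of phosphoethanolamine include pathways that hold none of the enzymes described here. Among the other genes of these lists, 79 had the minimum of UMIs, and 15 were lower and 1 was higher past the fold in C75S. The shares over all genes were 4.61% and 2.44%. Of the genes lower, only Agxt, Shmt1, Afmid, Dhtkd1 and Etnk2 share a list with an enzyme described here. Centred on the median gene or with TMM factors, 11 were lower, and Shmt1, Dhtkd1, Bcat2 and Cth no longer passed. Over all genes the shares were then 3.73% lower and 3.08% higher when centred, and 3.59% and 3.18% with TMM factors. Of the 79, 64 had a log2 ratio below 0, where 59.6% of all genes had. The median over the 79 was -0.23, against -0.05 over all genes. The lists were drawn up with earlier results of these sections known, so these counts are a description.

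**Figure D5:**
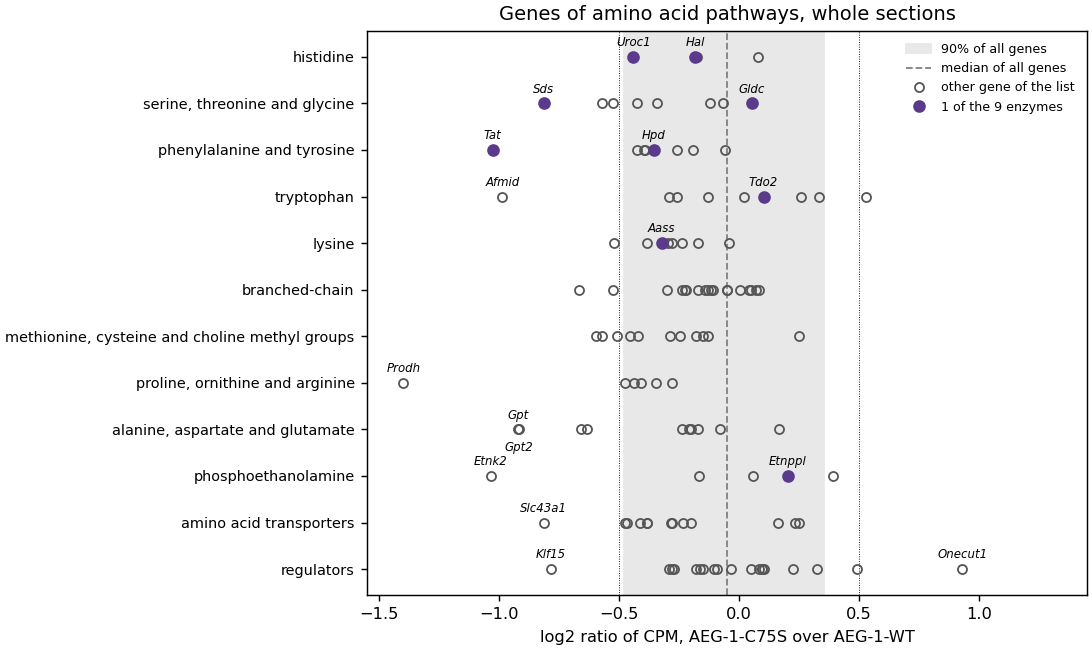
Log2 ratio of C75S over WT for each gene with the minimum of UMIs in 12 lists, with the 9 enzymes filled, the band that holds 90% of all genes shaded, the median of all genes dashed and the fold of 0.5 dotted. Prodh is the lowest at -1.40 and most points lie left of the dashed line.

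In the list of phenylalanine and tyrosine all 8 genes were below 0, as were 59.6% of all genes, with a median of -0.37. Only Tat passed the fold there, and Gstz1, a late step, had 409 and 311 CPM (-0.40). In the list of serine, threonine and glycine 3 of 9 were lower past the fold. Beside Sds these were Agxt, the peroxisomal transaminase of glyoxylate and alanine, with 346 and 233 CPM (-0.57), and Shmt1, cytosolic serine hydroxymethyltransferase, with 316 and 219 CPM (-0.53). Sdsl, a close relative of Sds, differed from it: its 17.5 and 16.7 CPM gave -0.07 (-0.22 to 0.08), while its end bins differed by 2.14 in WT and 2.06 in C75S, a slope like that of Hal.

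The tryptophan list had 1 of 9 genes lower past the fold and 1 higher, with a median of 0.02. Afmid, the formamidase that acts on the product of Tdo2, had 102 CPM in WT and 51.3 CPM in C75S (-0.99). Acmsd, which directs the pathway away from NAD synthesis, had 11.3 and 16.3 CPM (0.53). In the phosphoethanolamine list 1 of 5 genes was lower past the fold: Etnk2, an ethanolamine kinase that makes the substrate of Etnppl, with 454 and 222 CPM, a log2 ratio of -1.03 where that of Etnppl was above 0. In the histidine list, 0 of 4 genes passed the fold, with Amdhd1 at 0.08 and Ftcd at -0.18. In the lysine list 8 of 8 genes were below 0, as were 59.6% of all genes, Hykk (-0.04) by less than those scalings move it. In that list 1 passed the fold, Dhtkd1, a subunit of a 2-oxoadipate dehydrogenase, with 99.1 and 69.1 CPM (-0.52).

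In the pathways without one of the 9 enzymes, the lowest value was that of Prodh, proline dehydrogenase, with 248 and 94.1 CPM (-1.40). The alanine transaminases Gpt, with 215 and 114 CPM, and Gpt2, with 87.6 and 46.4 CPM, both had -0.92. The methyltransferase Gnmt had 3804 and 2514 CPM (-0.60). In the branched-chain list 2 of 18 genes were lower past the fold, Ivd at -0.67 and Bcat2 at -0.53, and the list had a median of -0.12. Along the lobule, Oat (-3.08 in WT and -2.96 in C75S) and Csad (-1.89 and -1.75) leaned to the central vein far more than Hpd. Gls2 leaned to the portal side at 1.70 and 1.79.

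Of 13 amino acid transporters, 1 was lower past the fold, Slc43a1 (17.0 and 9.69 CPM, -0.81). Of 19 regulators 1 was lower, Klf15 (238 and 138 CPM, -0.79), a factor known to act on genes of amino acid breakdown, and 1 was higher, Onecut1 (28.2 and 53.7 CPM, 0.93). Of all genes, 4.61% were lower past the fold and 2.44% higher, so the small counts past the fold do not set either list apart. By sign, 10 of the 13 transporters were below 0, with a median of -0.28. Of the 19 regulators 10 were below 0, with a median of -0.03. Over all genes 59.6% were below 0, with a median of -0.05. The glucocorticoid receptor gene Nr3c1 was at -0.10.

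Other gene groups differed between the same sections, where 2.44% of all genes were higher past the fold and 4.61% were lower. Of 10 fasting genes, 6 were higher past the fold, among them Igfbp1 (48.8 and 309 CPM, 2.66) and G6pc (78.6 and 209 CPM, 1.41). Of the same 10, 3 were below 0, Pck1 (-0.31), Ppargc1a (-0.29) and Cpt1a (-0.13). Of 8 genes of fat synthesis in the fed state, 1 was higher and 2 were lower, with a median of -0.20. Of 8 clock and output genes of the Dbp phase, 6 were lower, with a median of -1.31. Of 4 clock genes of the opposite phase, 1 was higher, Arntl at 1.70, and the median was 0.36. Of 9 glucocorticoid targets, 4 were lower and 1 was higher. By sign that list was split, with 5 below 0 and 4 above 0, and its median was -0.13. Time of day and feeding state are not given in the sources used here. Of 5 Kupffer cell markers, 2 were higher and the 5 summed to 793 and 1060 CPM. Of 6 markers of fibroblasts and portal matrix, 5 were lower, with a sum of 283 and 226 CPM, and in the most periportal bin of 292 and 178 CPM. The 5 cholangiocyte markers summed to 129 and 96.6 CPM. The part of these differences in the values of the enzymes was not tested. Without the tenth of spots of each section richest in portal matrix and cholangiocyte markers, Tat was at -1.03 and Sds at -0.79. With spots matched on total UMIs, Tat was at -1.03 and Sds at -0.86. Neither setting makes the sections alike in the gene groups above, so neither tests their part.

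The genes most like each enzyme were sought over 40 points, 20 bins of the axis in each section, among 4559 genes with at least 2000 UMIs. The points share sections and an axis, so the coefficients (Pearson r of log2 of CPM plus 1) are a description. Tat was most like Gnmt (0.991) and Serpina1e (0.991), which had log2 ratios between the sections of -0.60 and -3.44, and within C75S alone these coefficients were 0.891 and 0.841. Serpina1e is one of several near-identical paralogs, whose counts can be uncertain. Hpd was most like Gsta3 (0.992) and Serpina6 (0.987). Hal was most like Alb (0.986) and Hsd17b13 (0.985), and Etnppl most like Cyp2f2 (0.986), itself an axis gene, and Hsd17b13 (0.972). Uroc1 was nearest to Arg1 (0.976) and Uox (0.975), Sds to Acly (0.977) and Cyp17a1 (0.971), Aass to Cth (0.936) and Trf (0.927), and Gldc to C3 (0.922) and Pigr (0.903). Tdo2 had the least close neighbour, Iigp1 (0.792). The 40 points also hold the difference in level between the sections. Within WT and C75S alone, Aass with Cth was at 0.801 and 0.845, and Tdo2 with Iigp1 at 0.681 and 0.718. Other pairs stayed close, such as Hal with Alb at 0.993 and 0.980.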

How the data were processed

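The authors placed 5 µm liver sections on Visium slides, hybridised probe pairs for the mouse transcriptome and made the deposited tables with Space Ranger 2.0.1 on the mm10 reference. The deposited values are raw UMI counts per gene and spot, not normalized. Spots with at most 50000 UMIs and 100 to 7000 genes were kept, as in the study's filter (7 and 4 spots removed). The tables held 0 columns of other samples.

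UMIs were summed per section and per bin and divided by the total (CPM). Intervals are exact Poisson for sums and exact binomial (Clopper-Pearson) for ratios and shares, and a Wald interval for differences of axis ratios. A log2 ratio beyond 0.5 between sections, or 1 along the axis, was counted, where a gene had 200 UMIs or more in the 2 sections together. These are folds, not tests, since each group has 1 section. TMM factors came from edgeR 4.0.16 (R 4.3.3), all else from python 3.11.15 with pandas 2.3.3, scipy 1.17.1 and numpy 2.4.6. The intervals and signs of log2 ratios were checked on simulated Poisson counts, the kind of counts the intervals assume. The axis, bins, thinning and motif steps were not part of that check.

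The enzymes and gene lists were chosen with earlier results of these data known, and the motifs, the printed windows and the variance threshold (10% above the mean) with the values of the enzymes seen. Of the listed pathway genes, 6 were not in the tables used here. The named genes were the 9 enzymes, of each pathway, transporter or regulator list the genes with the largest ratios between sections and along the axis, and the 2 genes most like each enzyme; those the report gives are a selection of them, and the others are not reported here, with Bcat2, Nr3c1 and the marker and fasting genes named as examples. Alternatives changed the spot filter, the weight of spots, the scaling, depth matching, portal spots, the count minimum, the axis genes, the bins and the thinning.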

Additional observations from a re-analysis of the deposited data

Results flagged for a closer look

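Tdo2 stood out because its direction differed between the groups compared. The log2 ratio of the most periportal over the most pericentral bin was 0.025 in WT and -0.15 in C75S. The log2 ratio of C75S over WT was -0.0064 in the most periportal bin and 0.16 in the most pericentral bin. With 1 section per genotype the difference was not tested, and the first value of each pair lay within counting error of 0. Under other settings the value of the most periportal bin lay between -0.0061 and 0.02, so its sign is not settled, while that of the most pericentral bin lay between 0.14 and 0.20.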

How the results depend on the processing

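No paired analysis was possible because each genotype had 1 section. The signs of the 9 ratios between sections and of the 18 axis ratios held under the 7 alternatives run for each. By bin, the 2 values higher past the fold became 0 with other axis genes, 0 with cut points set over both sections together and 0 with an axis from thinned counts, as the report gives for Etnppl and Gldc. The number of enzymes with a variance of thinned counts over 10% above the mean in both sections was 1, and became 3 with seed 2 and 5 at 5000 UMIs per spot, so nothing rests on it. The other 74 recomputed counts stayed within 1.5 times the reported value. With a minimum of 50 UMIs the share of all genes lower past the fold was 7.08% in place of 4.61%. Each scaling moved all ratios between sections by the same amount, between 0.04 and 0.06 on the log2 scale. That is too little to turn any of the 9 signs. Depth limits Gldc most, with 1573 and 1612 UMIs. No setting separates genotype from animal.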

Other observations

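Shares of spots were compared at an equal depth of 3000 UMIs per spot, without the 4 spots of WT and 3 of C75S below it. Tat then had a UMI in 93.6% of 2305 spots in WT (exact binomial interval 92.5% to 94.5%) and in 74.4% of 2160 spots in C75S (72.5% to 76.2%), and before thinning in 99.96% and 99.0%. Sds had one in 29.2% (27.3% to 31.1%) and 18.2% (16.6% to 19.9%), and before thinning in 76.2% and 62.0%. The intervals of these shares treat spots as independent draws, so they cannot be read as a comparison of genotypes. Shares from Poisson counts of the same mean would be 93.5% and 73.7% for Tat and 30.8% and 18.5% for Sds. No spots without these enzymes served as a background.

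Between spots, the thinned counts of the enzymes were weakly related, with Pearson r from -0.15 to 0.13 over 36 pairs in WT and from -0.16 to 0.15 in C75S, and medians of 0.01 and 0.02. In sparse counts such values carry no finding.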
